A study of Mus musculus with 48 samples.

Results

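Matricellular proteins are secreted into the extracellular matrix without forming its fibres, and act on cells through integrins, growth factors and proteases. Periostin, the tenascins, thrombospondin 1 and SPARC belong to this group, and most of them are scarce in healthy adult kidney and abundant in wounds and in development. Fibronectin and fibrillin 1 build the fibrillar scaffold on which collagens and growth factors are deposited, whereas versican, lumican and decorin are proteoglycans that fill or bind that scaffold. The 10 genes of these proteins, Postn, Tnc, Tnn, Thbs1, Sparc, Fn1, Fbn1, Vcan, Lum and Dcn, were followed here among 14320 genes and unassigned transcripts. They were taken by name, and the level of each was the sum of the FPKM (fragments per kilobase of transcript, scaled to the mapped fragments of the library) of its deposited transcripts.

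The libraries came from renal cortex of male C57BL/6 mice of 6 to 8 weeks, in which the left renal pedicle was clamped for 40 minutes (severe model) or 20 minutes (mild model) and the kidney taken on day 1 or day 3. Each of the 24 mice gave a left kidney with ischemia-reperfusion injury (IRI) and its own right kidney as control, so 48 libraries formed 8 groups of 6: IRI and control kidneys of the 40-min and of the 20-min model on day 1 and on day 3. The right kidney was removed as a self-control at the operation according to the study's methods, while the labels give it the day of its left kidney, so that ischemia, the operation and the loss of the right kidney cannot be told apart in the comparison of left with right. The labels give the strain and name no transgene, and no sham-operated group was among these libraries.

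Proximal tubule markers checked the labelled tissue. The summed level of 7 of them was 865 to 1554 FPKM in 40-min IRI kidneys and 3180 to 3921 FPKM in their controls on day 1, and 5 injured tubule markers summed to 675 to 2242 FPKM in 40-min IRI kidneys and 3.13 to 13.6 FPKM in controls on day 1. Low values of genes with a single transcript clustered at steps that place the depth of a library at about 1.09e+07 to 2.08e+07 fragments. The highest estimate lies at the limit of the steps searched. Between 31.4 and 59.4% of the low values in a library lay within 0.1 of a whole step. A factor of 2 is uncertain because steps of 1/2 that size occurred too, and the estimated fragment numbers below share these limits. In bulk cortex, fewer cells of a type and less RNA per cell cannot be told apart. The median gene was itself higher by 0.24 on the log2 scale in 40-min IRI than in control kidneys on day 1 and by 0.16 on day 3. With every library scaled to the same median, the same 7 and 10 of the 10 genes were called in these 2 comparisons.

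After 40 minutes of ischemia, 7 of the 10 genes were higher in IRI than in control kidneys on day 1 and 9 were higher on day 3, against 15.7% of all genes called higher on day 1 and 15.3% on day 3. A gene was called where its fold change was at least 2 and the Benjamini-Hochberg adjusted p of the limma test on log2(FPKM + 0.01) was under 0.05. In 7 of the 10 genes on day 1 and in 8 on day 3, every IRI kidney lay above every control kidney, a separation that 24.6% of all genes showed on day 1 and 25.7% on day 3. Tnn was the only one of the 10 called lower, on day 3, where 5.98% of all genes were lower. The median log2 fold change of the 10 genes was 1.97 on day 1 and 2.18 on day 3. After 20 minutes of ischemia none of the 10 was called on either day, while 1.19% of all genes were called higher on day 1 and 2.34% on day 3.

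**Figure D1:**
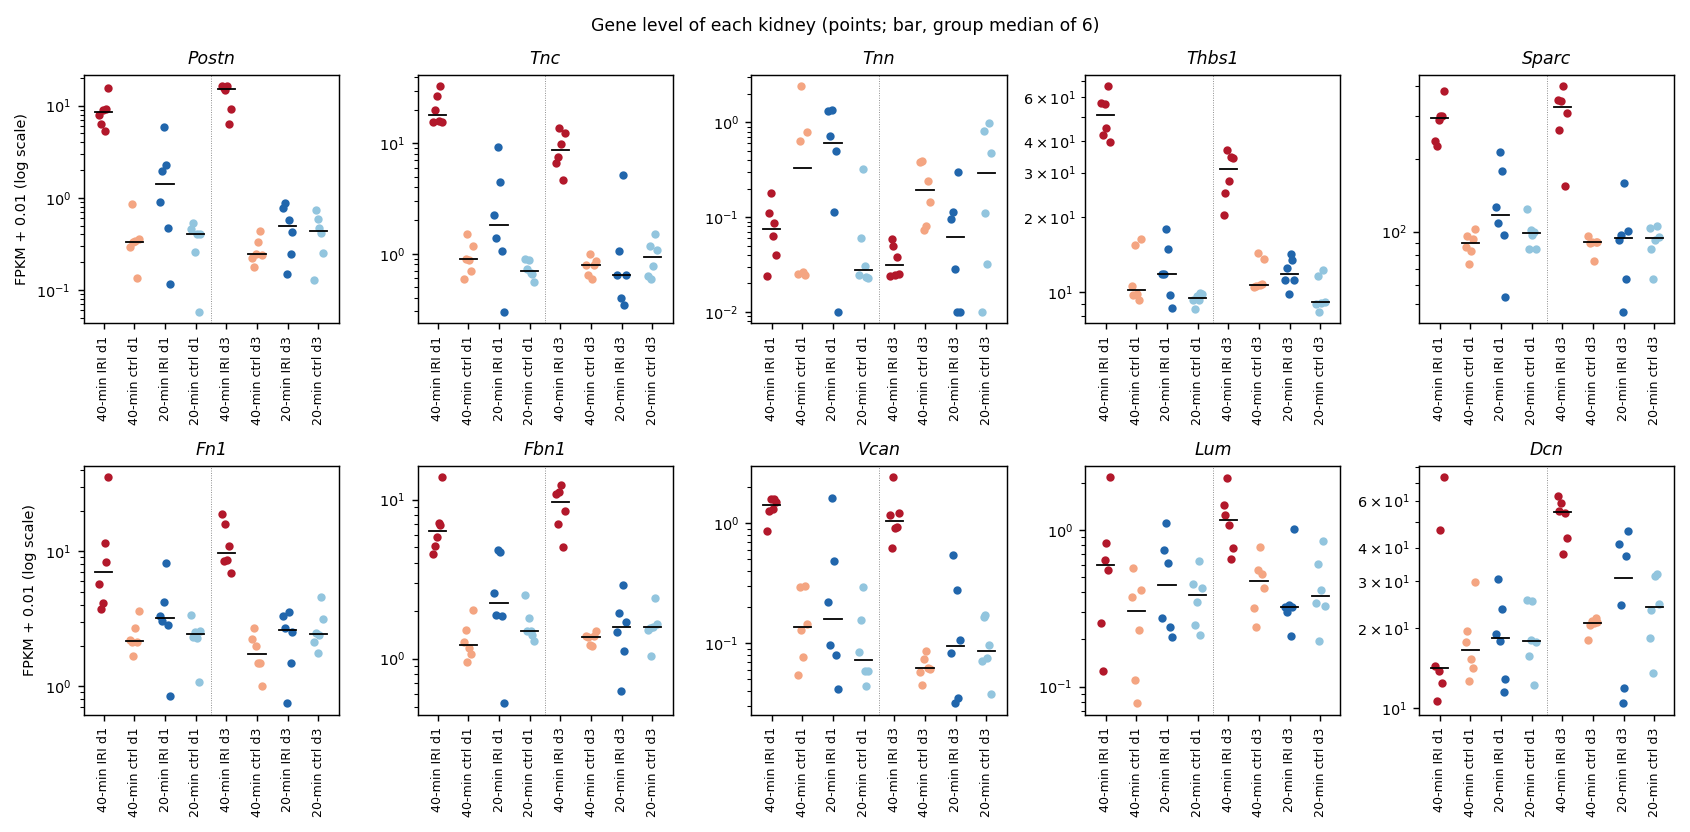
Level of the 10 matrix genes in each of 48 kidneys (points; bar, median of the 6 kidneys of a group) as FPKM + 0.01 on a log axis, with IRI groups in dark red (40-min) and dark blue (20-min), control groups in the lighter shades, and day 1 left and day 3 right of the dotted line. The Postn levels of 40-min IRI kidneys, 5.34 to 16.4 FPKM, all lay above the control kidneys, whereas Lum and Dcn overlapped with controls on day 1.

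Postn (chr3:54361109-54391037, plus strand) encodes periostin, an integrin ligand that binds collagen and is made by activated fibroblasts. Its level in 40-min IRI kidneys was 5.34 FPKM in the lowest, 8.53 in the median and 15.5 in the highest kidney on day 1, against 0.124, 0.324 and 0.848 FPKM in their controls. On day 3 the lowest, median and highest IRI kidneys held 6.36, 15.1 and 16.4 FPKM, against 0.169, 0.233 and 0.422 FPKM in controls. The groups did not overlap on either day. Postn was higher by 4.66 (SE 0.38, adjusted p = 4.5e-07) on the log2 scale on day 1 and by 5.55 (SE 0.28, adjusted p = 7.6e-09) on day 3, which made it the gene of the 10 with the largest fold change in each. In 20-min IRI kidneys on day 1 Postn ranged between 0.105 and 5.91 FPKM, with 4 of 6 above every control kidney, and the difference was not called (log2 fold change 1.84, SE 0.86, adjusted p = 0.19). Without the left and right kidney of 20-min mouse 6 of day 1, whose IRI kidney was the lowest of its group in all of the 10 genes but Dcn, 3 of the 10 genes were called higher in that comparison: Postn (log2 fold change 2.57, adjusted p = 0.047), Tnc (1.82, adjusted p = 0.042) and Tnn (3.53, adjusted p = 0.029).

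Periostin has an alternatively spliced region near its C terminus, and the deposited transcripts of Postn differ there by an exon of 81 bases (chr3:54380412-54380492) and an exon of 84 bases (chr3:54385671-54385754). Both are shown because their shares of the group mean stood far apart in injured and control kidneys. Capitals mark the exon and lower case the 10 bases of the joined exons on either side, read from the GENCODE transcripts on GRCm38.
Postn exon of 81 bases, in Postn-203: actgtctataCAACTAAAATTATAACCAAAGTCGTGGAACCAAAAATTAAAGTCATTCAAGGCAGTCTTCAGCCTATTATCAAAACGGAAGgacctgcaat
Postn exon of 84 bases, in Postn-201: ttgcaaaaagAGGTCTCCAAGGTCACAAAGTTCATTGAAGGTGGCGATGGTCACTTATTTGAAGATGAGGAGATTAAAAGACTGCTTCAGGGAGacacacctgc
Of the mean Postn FPKM, transcripts with the 81-base exon held 6.57% in 40-min IRI kidneys and 71.2% in controls on day 1, and 15.2% in IRI kidneys and 88.7% in controls on day 3. Transcripts with the 84-base exon held 61.1% in 40-min IRI kidneys and 0.387% in controls on day 1, and 52.3% and 11.3% on day 3. Postn-201, which has the 84-base exon and lacks the other, averaged 5.23 ± 1.78 FPKM in 40-min IRI kidneys on day 1 (SD, n = 6) and was listed at 0 in 5 of the 6 controls. Because most control kidneys had under 0.5 FPKM of Postn, an estimated 4.90 to 30.2 fragments for the whole gene in a control kidney of the 40-min model on day 1, these shares were not tested.

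Tnc (chr4:63959785-64047015, minus strand) encodes tenascin C, a hexameric glycoprotein that loosens cell adhesion to fibronectin. The lowest, median and highest levels were 15.6, 18.04 and 33.2 FPKM in 40-min IRI kidneys on day 1, against 0.576, 0.883 and 1.49 FPKM in controls. On day 3 they were 4.61, 8.68 and 13.8 FPKM in IRI kidneys, against 0.576, 0.781 and 0.976 FPKM in controls. Every 40-min IRI kidney was above every control on both days, and the log2 fold change was 4.48 (SE 0.25, adjusted p = 2.5e-08) on day 1 and 3.48 (SE 0.25, adjusted p = 1.5e-07) on day 3. Between the days, every 40-min IRI kidney of day 3 was below every one of day 1 in Tnc, the only one of the 10 called (log2 fold change -1.25, SE 0.28, adjusted p = 0.011), where 1.63% of all genes were called lower. Thbs1 did not overlap either, and only its fold change was under the 2-fold limit (log2 fold change -0.79, limma adjusted p = 0.0098). The share of all genes without overlap between the days is not given here. For Tnc the difference between the fold changes of the 2 days was not called (-0.99, adjusted p = 0.073). In 20-min IRI kidneys the range was 0.287 to 9.34 FPKM on day 1 and 0.332 to 5.20 on day 3. Each day had single kidneys far above the rest, mouse 3 and mouse 4 on day 1 (9.34 and 4.49 FPKM) and mouse 4 on day 3 (5.20 FPKM).

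Most of the Tnc FPKM was assigned to a different transcript in 40-min IRI kidneys than in control kidneys. In the 40-min controls this rests on an estimated 45.4 to 209.5 fragments for the whole gene per kidney on day 1, and 57 to 85.2 on day 3. Only fragments on the exons that differ tell the transcripts apart, and the shares follow the authors' assignment of fragments. Tnc-204 begins with an upstream first exon of 267 bases (chr4:64046749-64047015) and lacks an exon of 273 bases (chr4:63984460-63984732) that encodes an alternative fibronectin type III repeat. Tnc-203 holds that repeat exon, and its model begins at the exon that is the second one of Tnc-204 (chr4:64020144-64020725). Tnc-204 averaged 20.5 ± 7.09 FPKM in 40-min IRI kidneys and 0.0259 ± 0.0336 FPKM in controls on day 1 (SD, n = 6 each), whereas Tnc-203 averaged 0.420 ± 0.360 FPKM in IRI kidneys and 0.771 ± 0.208 FPKM in controls. Tnc-204 was at most 0.0896 FPKM in any control kidney. Because each deposited transcript reached 0.5 FPKM in at least 1 library, Tnc-204 was listed only through IRI kidneys. Tnc-204 held 96.7% ± 1.80 of the Tnc FPKM in 40-min IRI kidneys and 2.14% ± 2.56 in controls on day 1, and 88.7% ± 5.77 in IRI kidneys and 2.02% ± 2.56 in controls on day 3 (SD, n = 6 each). The shares did not overlap on either day (two-sided p = 0.00216 by an exact permutation test, which cannot go lower with 6 kidneys a side, adjusted p = 0.013 over 18 tests of the main transcript's share in genes with at least 0.5 FPKM in every kidney). Among all genes with 2 or more transcripts and at least 0.5 FPKM in each kidney, the share of the main transcript did not overlap in 3.87% on day 1 and 3.64% on day 3. The repeat exon was on 1.93% ± 1.49 of the Tnc FPKM in 40-min IRI kidneys and 87.1% ± 23.7 in controls on day 1 (SD, n = 6 each). Where 20-min IRI kidneys had the highest Tnc level, they also had this form, with 84.6% and 86.2% on Tnc-204 in mouse 3 and mouse 4 of day 1 and 69.5% in mouse 4 of day 3, and at most 4.08% in the other 20-min IRI kidneys with at least 0.5 FPKM.

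The repeat exon that Tnc-204 lacks is printed as in Tnc-203, capitals marking the exon and lower case 10 bases of its neighbours.
Tnc alternative exon, in Tnc-203: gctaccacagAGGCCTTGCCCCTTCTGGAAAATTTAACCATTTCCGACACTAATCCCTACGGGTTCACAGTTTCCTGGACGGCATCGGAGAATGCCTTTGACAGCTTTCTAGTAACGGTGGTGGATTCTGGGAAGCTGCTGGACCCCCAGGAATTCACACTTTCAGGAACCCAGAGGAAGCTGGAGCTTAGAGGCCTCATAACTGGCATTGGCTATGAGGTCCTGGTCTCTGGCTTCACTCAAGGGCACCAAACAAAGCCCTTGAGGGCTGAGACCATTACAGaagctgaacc
The window from 250 bases before to 50 after the start of Tnc-204 (RefSeq promoter table, GRCm38.p6, chr4:64046966-64047265, minus strand) is shown because nearly all of the injury signal was assigned to a transcript that starts there. Capitals mark a match to the TATA box letters TATAAA 126 bases before the start and to the SMAD letters CAGACA, on the other strand, 8 bases after it. Both are matches of letters only, and whether either is used by Tnc-204 was not tested.
Tnc promoter: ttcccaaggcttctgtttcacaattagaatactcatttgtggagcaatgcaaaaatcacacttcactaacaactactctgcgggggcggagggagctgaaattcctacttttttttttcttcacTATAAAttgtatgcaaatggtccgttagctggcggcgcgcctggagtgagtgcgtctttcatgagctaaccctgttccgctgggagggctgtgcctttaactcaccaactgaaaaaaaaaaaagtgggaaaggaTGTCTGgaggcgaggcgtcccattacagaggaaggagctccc
The searched letters, on both strands and with no overlaps between motifs in this window, were the TATA box TATAAA (found in 13.6% of 32851 promoter windows of the same length), the SMAD motif CAGACA (21%), the TEAD motif GGAATG (14.7%) and the AP-1 motif TGANTCA (7.81%). The table held 8 windows for 6 of the 10 genes, Tnn, Fbn1, Postn, Tnc, Sparc and Vcan. TATAAA was in 3 of the 8 windows, CAGACA in 3, GGAATG in 1 and TGANTCA in none, which says only that these letters were not in the window. The 2 Tnc windows overlap and hold the same TATAAA and the same CAGACA match shown above, so the TATAAA windows belong to Postn and Tnc and the CAGACA windows to Tnc and Sparc.

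Tnn (chr1:160085029-160153580, minus strand) encodes tenascin N, a tenascin known mainly from bone and tumor stroma. It was listed between 0 and 2.42 FPKM over all 48 kidneys. In 40-min IRI kidneys of day 3 the lowest, median and highest were 0.0140, 0.0216 and 0.0493 FPKM, against 0.0632, 0.183 and 0.377 FPKM in controls. These levels stand for an estimated 1.01 to 3.53 fragments per IRI kidney and 4.48 to 27.6 per control kidney. The groups did not overlap, and Tnn was lower in IRI than in control kidneys (log2 fold change -2.36, SE 0.54, adjusted p = 0.0022). With a pseudocount of 1 FPKM the log2 fold change was -0.23, under the 2-fold limit. On day 1 it overlapped in 40-min kidneys, at 0.0137 to 0.171 FPKM in IRI and 0.0143 to 2.42 FPKM in control kidneys (adjusted p = 0.39). In the 20-min model of day 1 it was 0 to 1.35 FPKM in IRI and 0.0129 to 0.314 FPKM in control kidneys, with 4 of 6 IRI kidneys above every control and no call (log2 fold change 2.75, SE 1.17, adjusted p = 0.16).

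Thbs1 (chr2:118111876-118127133, plus strand) encodes thrombospondin 1, which activates latent TGF-β and inhibits angiogenesis. Its lowest, median and highest levels were 39.7, 50.8 and 66.7 FPKM in 40-min IRI kidneys of day 1, against 9.30, 10.2 and 16.4 FPKM in controls. On day 3 they were 20.3, 31.1 and 37.0 FPKM in IRI kidneys, against 10.5, 10.7 and 14.4 FPKM in controls. IRI and control kidneys did not overlap on either day. The log2 fold change was 2.12 (SE 0.17, adjusted p = 4.8e-07) on day 1 and 1.33 (SE 0.15, adjusted p = 6.8e-06) on day 3. Thbs1 was the only one of the 10 whose fold change differed between the days in the 40-min model (day 3 minus day 1, -0.80, SE 0.24, adjusted p = 0.029), where 8.2% of all genes had a lower fold change on day 3, and all 6 IRI kidneys of day 3 were below all 6 of day 1. The call was lost without 40-min mouse 1, 2, 4 or 5 of day 1 or 40-min mouse 1, 2 or 4 of day 3 (-0.81 to -0.65, adjusted p = 0.0502 to 0.0889). In the 20-min model the level was 8.60 to 17.9 FPKM in IRI and 8.54 to 9.95 FPKM in control kidneys on day 1. On day 3 it was 9.85 to 14.1 FPKM in 20-min IRI and 8.33 to 12.2 FPKM in control kidneys, higher in the left kidney of 6 of 6 mice, and the fit across all genes did not call it (log2 fold change 0.29, SE 0.12, adjusted p = 0.12).

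Sparc (chr11:55394500-55423183, minus strand) encodes SPARC, or osteonectin, a collagen-binding matricellular protein. It was the most abundant of the 10 per length. The lowest, median and highest kidneys held 225, 294 and 380 FPKM in the 40-min IRI group of day 1, against 73.2, 89.9 and 102 FPKM in controls. The day 3 kidneys held 154, 328 and 400 FPKM, against 75.4, 90.3 and 95.7 FPKM in controls. No kidney overlapped, and the log2 fold change was 1.68 (SE 0.12, adjusted p = 1.9e-07) on day 1 and 1.72 (SE 0.19, adjusted p = 5.5e-06) on day 3. In 20-min IRI kidneys Sparc was 53.6 to 213 FPKM on day 1 and 46.5 to 159 FPKM on day 3, on both sides of the controls. The share of Sparc assigned to Sparc-201 ran from 2.30% to 91.9% within the 40-min control group of day 1, and none of its 4 comparisons of IRI with control kidneys passed the test (exact permutation test, adjusted p = 0.061 to 1).

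Fn1 (chr1:71585520-71653200, minus strand) encodes fibronectin, the adhesive glycoprotein on which other matrix fibres assemble. On day 1 the lowest, median and highest levels were 3.75, 7.01 and 35.4 FPKM in 40-min IRI kidneys, against 1.66, 2.15 and 3.60 FPKM in controls. On day 3 they were 6.83, 9.73 and 18.8 FPKM in IRI kidneys, against 0.998, 1.73 and 2.69 FPKM in controls. The groups did not overlap, although on day 1 the kidney of mouse 6, at 35.4 FPKM, stood far above the next, at 11.5 FPKM. Fn1 was higher by 1.81 (SE 0.46, adjusted p = 0.0043) on day 1, by 1.51 (adjusted p = 0.00096) without that mouse, and by 2.65 (SE 0.28, adjusted p = 5.0e-06) on day 3. In the 20-min model the level was 0.844 to 8.15 FPKM in IRI and 1.06 to 3.37 FPKM in control kidneys on day 1, and 0.738 to 3.55 FPKM in IRI and 1.76 to 4.58 FPKM in control kidneys on day 3.

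Cellular fibronectin differs from plasma fibronectin by a pair of alternative type III repeats, EDB and EDA, each encoded by its own exon. Of the 8 deposited Fn1 transcripts, EDB (chr1:71613763-71614035) was in a single one and EDA (chr1:71603660-71603929) in 4. The EDB exon is printed because its share differed between the groups on day 3, with capitals for the 273 bases of the exon.
Fn1 EDB exon: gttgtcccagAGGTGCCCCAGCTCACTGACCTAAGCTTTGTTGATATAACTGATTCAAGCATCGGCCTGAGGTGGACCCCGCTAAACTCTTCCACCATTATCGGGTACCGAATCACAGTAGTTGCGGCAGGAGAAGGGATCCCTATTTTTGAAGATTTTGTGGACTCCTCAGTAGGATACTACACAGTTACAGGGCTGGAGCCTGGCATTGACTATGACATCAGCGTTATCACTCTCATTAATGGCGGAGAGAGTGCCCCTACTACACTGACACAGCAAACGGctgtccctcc
The transcript with EDB averaged 5.99 ± 5.68 FPKM in 40-min IRI kidneys and 0.605 ± 0.938 FPKM in controls on day 1, and 6.91 ± 3.77 FPKM in IRI kidneys and 0.190 ± 0.442 FPKM in controls on day 3 (SD, n = 6 each). It was listed at 0 in 4 controls of day 1 and 3 of day 3. Its share of the Fn1 FPKM on day 3 was 64.3% ± 30 in 40-min IRI kidneys and 7.58% ± 16.3 in controls (SD, n = 6 each, exact permutation test p = 0.0065, adjusted p = 0.023), and the groups overlapped, with 23.7% in the lowest IRI kidney and 40.6% in the highest control. On day 1 the share was 54.4% ± 23.0 in IRI kidneys and 28.2% ± 43.7 in controls, and 2 control kidneys at 82.6% and 86.7% exceeded all IRI kidneys (exact permutation test p = 0.21, adjusted p = 0.34). The EDA share, which was not tested, was 77.1% ± 9.22 in 40-min IRI kidneys and 73.2% ± 14.98 in controls on day 1, and 82.8% ± 10.9 in IRI kidneys and 75.2% ± 26.1 in controls on day 3 (SD, n = 6 each). These shares follow the authors' assignment of fragments to transcripts.

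**Figure D2:**
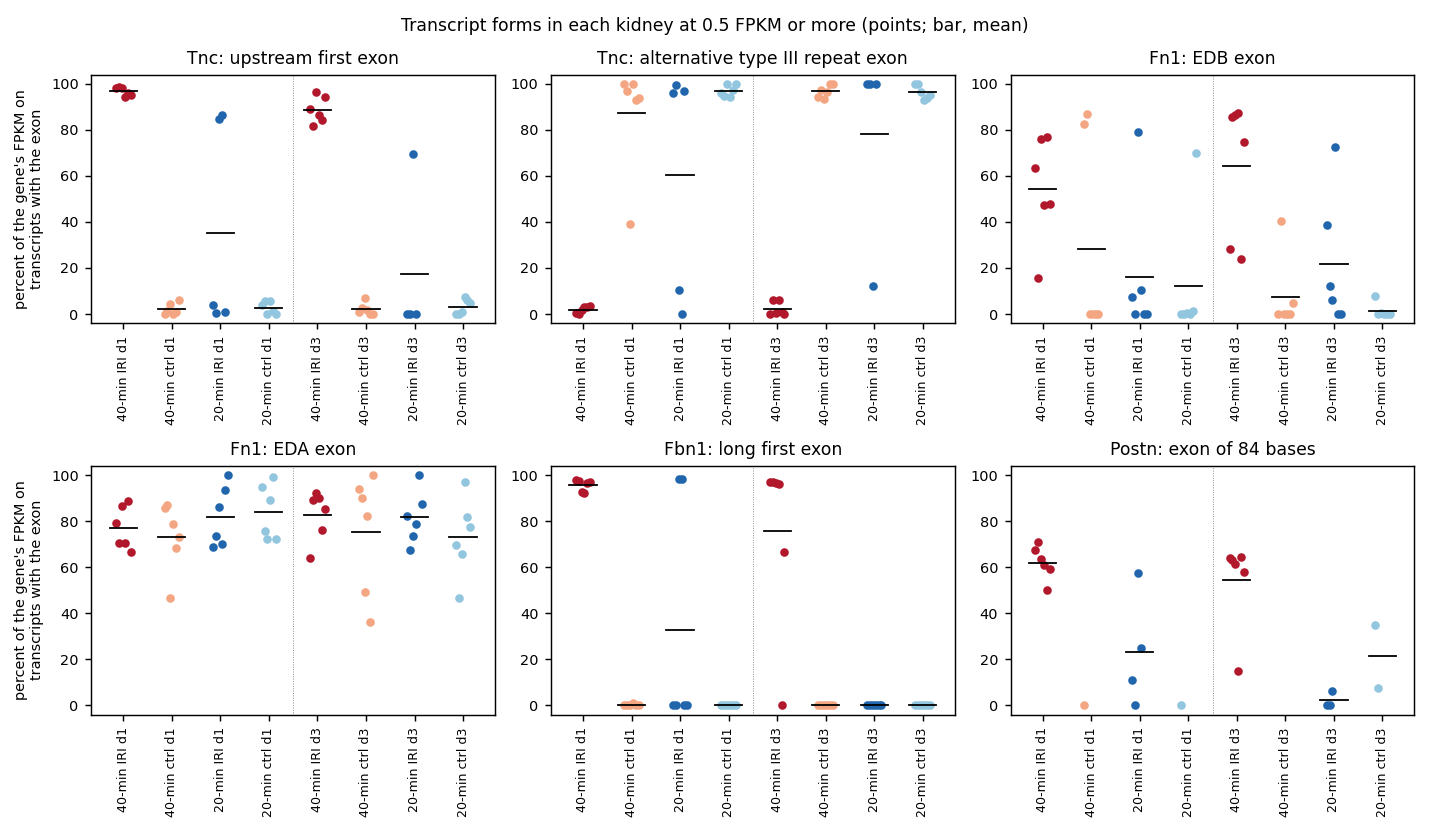
Percent of a gene's FPKM on transcripts that contain the named exon, for each kidney with at least 0.5 FPKM of the gene (points; bar, group mean where 2 or more kidneys had a value), colors as in the plot of levels. The upstream first exon of Tnc held 81.6 to 98.5% in 40-min IRI kidneys and at most 6.84% in their controls, while the EDA exon of Fn1 ranged widely in all groups.

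Fbn1 (chr2:125300594-125507993, minus strand) encodes fibrillin 1, the backbone of microfibrils and a store of latent TGF-β. The lowest, median and highest levels were 4.56, 6.34 and 13.8 FPKM in 40-min IRI kidneys of day 1, against 0.937, 1.21 and 2.03 FPKM in controls. On day 3 they were 5.01, 9.68 and 12.3 FPKM in IRI kidneys, against 1.198, 1.36 and 1.48 FPKM in controls. The groups stood apart on both days, with log2 fold changes of 2.38 (SE 0.26, adjusted p = 6.4e-06) and 2.71 (SE 0.19, adjusted p = 1.6e-07). In the 20-min model the level was 0.515 to 4.81 FPKM in IRI and 1.28 to 2.51 FPKM in control kidneys on day 1, and 0.614 to 2.89 FPKM in IRI and 1.02 to 2.39 FPKM in control kidneys on day 3. Most of the Fbn1 FPKM was assigned to different transcripts in the 2 groups as well. The Fbn1 transcript whose model opens with a first exon of 2554 bases (chr2:125505440-125507993) held 95.5% ± 2.52 of the Fbn1 FPKM in 40-min IRI kidneys and 0.190% ± 0.465 in controls on day 1 (SD, n = 6 each, exact permutation test p = 0.00216, adjusted p = 0.013). On day 3 it held 75.5% ± 38.9 in IRI kidneys and 0.0346% ± 0.0848 in controls (exact permutation test, adjusted p = 0.045), with 66.5% in the IRI kidney of mouse 6. It was at 0 in the IRI kidney of mouse 5, although that kidney held 5.01 FPKM of Fbn1. In 20-min IRI kidneys of day 1 it held 98.1% in each of mouse 3 and mouse 4 and was listed at 0 in the other 4. In controls this transcript was at most 0.0132 FPKM, so it was listed, and tested as the main transcript, only through IRI kidneys. The p-values of its share are not independent of that choice. The shares follow the authors' assignment of fragments, and whether the form of Fbn1 itself changed was not tested.

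Vcan (chr13:89655312-89742509, minus strand) encodes versican, a large hyaluronan-binding proteoglycan of provisional matrix. Its lowest, median and highest levels were 0.853, 1.40 and 1.59 FPKM in 40-min IRI kidneys of day 1, against 0.0443, 0.126 and 0.289 FPKM in controls. On day 3 they were 0.604, 1.04 and 2.40 FPKM in IRI kidneys, against 0.0348, 0.0514 and 0.0765 FPKM in controls. Vcan was thus low in absolute level, an estimated 75.1 to 190 fragments in an IRI kidney and 4.95 to 45.9 in a control kidney of day 1, and its groups did not overlap. No control kidney of either model exceeded 0.289 FPKM, while every deposited transcript reached 0.5 FPKM in at least 1 library. Vcan was therefore listed only through IRI kidneys, so its separation from controls is not independent of that limit. The log2 fold change was 3.27 (SE 0.42, adjusted p = 2.2e-05) on day 1 and 4.12 (SE 0.32, adjusted p = 3.3e-07) on day 3. The exons for the alpha and beta chondroitin sulfate attachment regions define the long forms of versican, and the transcript with both, Vcan-203, averaged 0.616 ± 0.370 FPKM in 40-min IRI kidneys and 0.0922 ± 0.0613 FPKM in controls on day 1 (SD, n = 6 each). In the 20-min model Vcan was 0.0315 to 1.60 FPKM in IRI kidneys of day 1, with mouse 3 at the top, and 0.0337 to 0.282 FPKM in controls.

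Lum (chr10:97565128-97572703, plus strand) and Dcn (chr10:97479609-97518143, plus strand) encode lumican and decorin, small leucine-rich proteoglycans that regulate collagen fibril width. After Sparc, Dcn had the highest mean FPKM of the 10 genes in every control group. Its lowest, median and highest levels were 10.7, 14.1 and 73.5 FPKM in 40-min IRI kidneys of day 1, against 12.6, 16.5 and 29.7 FPKM in controls. The median of the IRI kidneys was below that of the controls, with 2 kidneys, mouse 4 (46.7 FPKM) and mouse 6 (73.5 FPKM), above all controls (log2 fold change 0.28, SE 0.45, adjusted p = 0.61). On day 3 Dcn was 37.7, 54.3 and 62.4 FPKM in IRI kidneys, against 17.9, 20.9 and 21.8 FPKM in controls, with no overlap (log2 fold change 1.31, SE 0.11, adjusted p = 6.8e-07). The step between day 1 and day 3 in 40-min IRI kidneys was not called (log2 fold change 1.27, SE 0.44, adjusted p = 0.052). It was called without mouse 6 of day 1 (1.63, adjusted p = 0.0024) and without mouse 4 (1.498, adjusted p = 0.037). In 20-min IRI kidneys of day 3 Dcn was 10.4 to 46.0 FPKM, against 13.5 to 31.8 FPKM in controls. There the share of Dcn-201 was 88.5% ± 6.65 in IRI kidneys and 97.0% ± 0.547 in controls (SD, n = 6 each, exact permutation test p = 0.0043, adjusted p = 0.019).

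Lum was lower and more variable. It was 0.116, 0.588 and 2.16 FPKM in the lowest, median and highest 40-min IRI kidney of day 1, against 0.0684, 0.292 and 0.563 FPKM in controls, and was not called (log2 fold change 1.14, SE 0.68, adjusted p = 0.17). Without 40-min mouse 2 of day 1 it was called (1.80, adjusted p = 0.032). On day 3 it was 0.646, 1.15 and 2.14 FPKM in IRI kidneys, against 0.232, 0.464 and 0.766 FPKM in controls, with 4 of 6 IRI kidneys above every control (log2 fold change 1.36, SE 0.34, adjusted p = 0.0040). With a pseudocount of 1 FPKM the log2 fold change was 0.57, under the 2-fold limit.

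**Figure D3:**
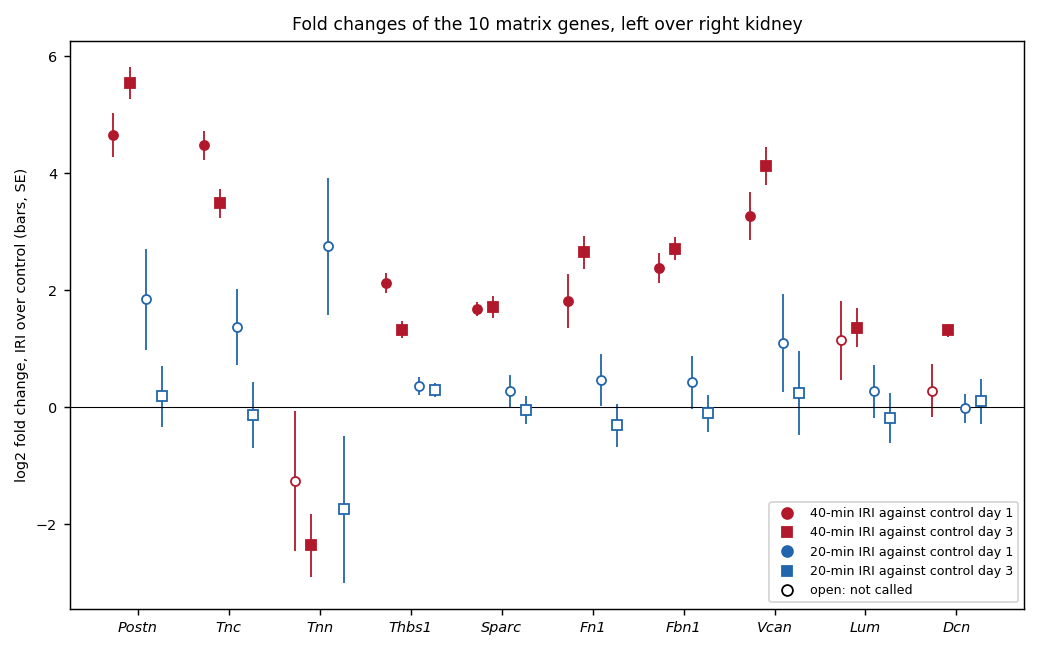
Log2 fold change of IRI over control kidneys for each gene (points; bars, SE of the limma fit), in red for the 40-min and in blue for the 20-min model, circles for day 1 and squares for day 3, filled where called. The red points run up to 5.55 for Postn on day 3 and down to -2.36 for Tnn on day 3, and all blue points are open.

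The order of the 8 groups showed 1 common break. With exact permutation tests of neighbours in the order of mean FPKM, adjusted over the 7 neighbour pairs of each gene, the lower of both 40-min IRI groups differed from the next group for Postn, Tnc, Sparc, Thbs1 and Fbn1 (adjusted p = 0.00758 to 0.0455). Only Tnc and Thbs1 had a second step, from day 1 to day 3 of 40-min IRI (adjusted p = 0.0152 and 0.00758). For Fn1, Vcan, Lum, Dcn and Tnn no neighbours differed. No neighbours among the 4 control groups and both 20-min IRI groups differed for any of the 10.

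The severe model was set against the mild one directly. On day 1, 6 of the 10 genes were higher in 40-min than in 20-min IRI kidneys, Tnc by 3.45 (SE 0.65, adjusted p = 0.0015), Postn by 3.01 (SE 0.75), Vcan by 2.77 (SE 0.73), Thbs1 by 2.06 (SE 0.18), Fbn1 by 1.63 (SE 0.48) and Sparc by 1.27 (SE 0.28), where 7.82% of all genes were higher. Thbs1, Tnc and Sparc separated completely, and the share of all genes that did so is not given here. The 20-min mouse 3 reached into the 40-min range of Postn, and 20-min mice 3 and 4 into that of Fbn1. The Vcan level of 20-min mouse 3 (1.595 FPKM) lay above that of every 40-min IRI kidney. With a pseudocount of 1 in place of 0.01 the Vcan difference fell under the 2-fold limit and was no longer called (0.81, adjusted p = 0.0071). Fn1 was not called (log2 fold change 1.41, SE 0.59, adjusted p = 0.072), but was without 20-min mouse 4 (1.69, adjusted p = 0.037), and Tnn was called lower without 20-min mouse 6 (-3.10, adjusted p = 0.0055; -2.12 with it) or with a pseudocount of 0.1 (-1.63, adjusted p = 0.048). On day 3 all but Tnn were higher in 40-min than in 20-min IRI kidneys, by 1.06 (Dcn) to 4.87 (Postn), where 9.82% of all genes were. With a pseudocount of 1 Vcan (0.88, adjusted p = 0.0016) and Lum (0.64, adjusted p = 0.01016) fell under the 2-fold limit on day 3. Dcn was lost with every library scaled to the same median (0.93, adjusted p = 0.073) and without 40-min mouse 1, 2, 3, 5 or 6 or 20-min mouse 2, 3 or 4 (0.82 to 1.11, adjusted p = 0.0517 to 0.0716). The 20-min IRI kidneys of day 3 and day 1 did not differ in any of the 10 by limma, although 1845 of all genes had an unadjusted p under 0.05. The 40-min and 20-min control kidneys differed in none of the 10 on either day (limma, adjusted p = 0.21 to 0.95). Between these controls 2573 of all genes on day 1 and 3044 on day 3 had an unadjusted p under 0.05. The share of all genes called there is not given here. The lack of a call among the 10 therefore does not show the controls to be alike.

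The difference between the fold changes of the 2 models, which uses each model's own control kidneys, had an adjusted p under 0.05 for Postn, Tnc, Sparc, Thbs1 and Fbn1 on day 1 and for all but Tnn on day 3, where 18.5% and 20.4% of all genes had a larger fold change in the 40-min model. On day 1 it was largest for Tnc (3.11, SE 0.73, adjusted p = 0.0025), and on day 3 for Postn (5.36, SE 0.60, adjusted p = 1.8e-06). With left and right kidneys paired by mouse, a replicate block, Vcan (2.18, adjusted p = 0.033 with the block and 0.09 without) and Tnn (-4.01, adjusted p = 0.042 with the block and 0.085 without) passed on day 1, and Lum (1.54, adjusted p = 0.069 with the block and 0.039 without) was lost on day 3. Without the block, single mice decided several of these differences. Postn on day 1 was lost without 40-min mouse 1, 3, 5 or 6 or 20-min mouse 1, 2 or 6 (adjusted p = 0.0511 to 0.0802), while Vcan passed without 20-min mouse 3 (2.45, adjusted p = 0.0193) and Tnn without 20-min mouse 6 (-4.80, adjusted p = 0.0288). On day 3 Lum was lost without 40-min mouse 1, 2 or 3 or 20-min mouse 1, 2, 4 or 5 (adjusted p = 0.0621 to 0.101), and Dcn without 40-min mouse 1, 2, 3 or 5 or 20-min mouse 2 or 4 (adjusted p = 0.0518 to 0.079).

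Of 70 genes in 7 related classes of matrix protein, 55 had values, and 29 were higher and 2 lower in 40-min IRI than in control kidneys on day 1, with 28 higher and 1 lower on day 3. A gene had a value only where a transcript of it reached 0.5 FPKM in at least 1 library, so genes low in all controls were kept only through IRI kidneys. The median log2 fold change of the 55 genes was 1.33 on day 1 and 1.29 on day 3, beside 0.24 and 0.16 over all genes. Elastic fibre and microfibril genes had 12 of 18 higher on day 1 and 13 of 18 on day 3, and Lox, the enzyme that crosslinks elastin and collagen, averaged 20.7 ± 4.96 FPKM in 40-min IRI kidneys and 1.19 ± 0.164 FPKM in controls on day 3 (SD, n = 6 each, log2 fold change 4.08). The CCN proteins, matricellular growth factor modulators, had 4 of 5 higher on day 1 and 2 of 5 on day 3. Ccn1 averaged 84.6 ± 19.03 FPKM in 40-min IRI kidneys and 16.6 ± 9.31 FPKM in controls on day 1 (log2 fold change 2.46), and 39.3 ± 9.81 FPKM in IRI kidneys and 15.9 ± 9.75 FPKM in controls on day 3 (1.43). The other small leucine-rich proteoglycans had the smallest share of called genes in both comparisons, with 1 of 8 higher and 1 lower on day 1 and 1 of 8 higher on day 3. Bgn (biglycan) was the higher one, at 155.9 ± 35.5 FPKM in 40-min IRI kidneys and 43.0 ± 4.26 FPKM in controls on day 3. Of the large proteoglycan and hyaluronan genes only 2 had values, among them Cd44, the hyaluronan receptor, which was higher by 3.82 on day 1 and 4.76 on day 3. In the remaining classes 3 of 8 and 5 of 8 thrombospondin, tenascin and SPARC relatives, 4 of 10 and 4 of 10 other adhesive glycoproteins, and 3 of 4 and 2 of 4 basement membrane genes were higher on day 1 and day 3. The called gene with the smallest adjusted p on day 3 in each of these remaining classes was, in the same order, Spock2 (log2 fold change 3.05), Tgfbi (3.25) and Nid1 (1.74). In the 20-min model 1 of the 55 genes was higher and 1 lower on day 1, and 4 were higher and 1 lower on day 3.

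**Figure D4:**
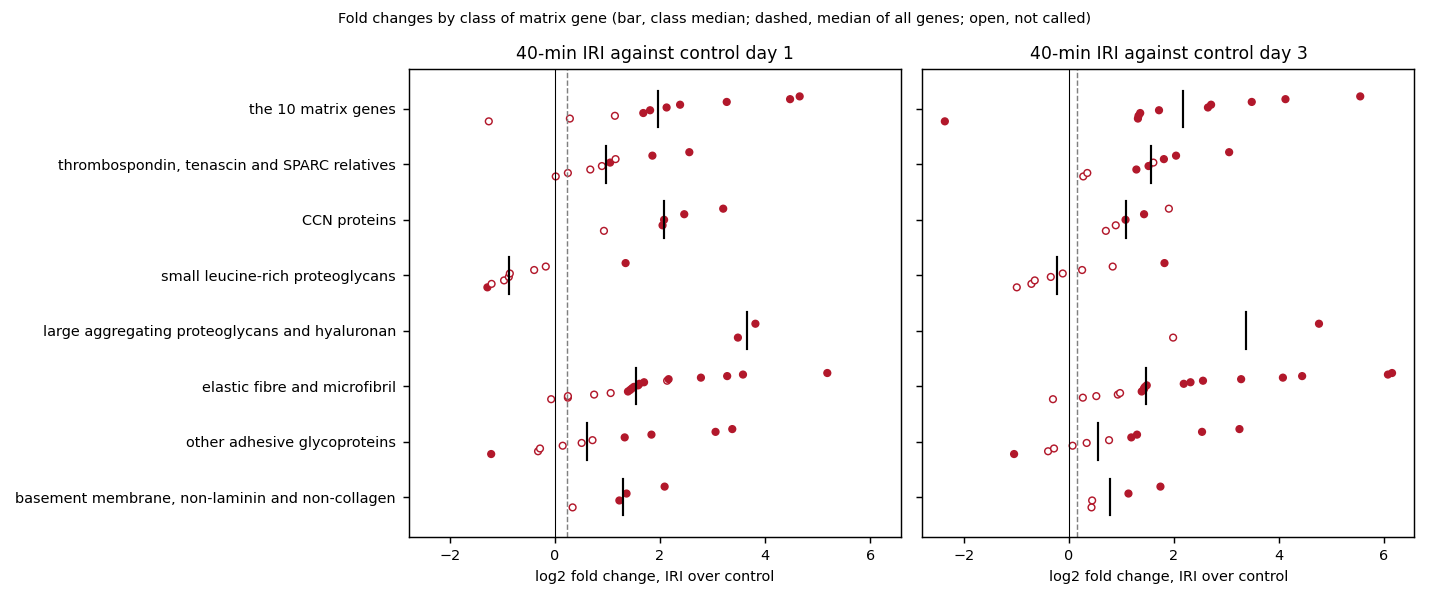
Log2 fold change of 40-min IRI over control kidneys on day 1 (left) and day 3 (right) for each gene of a class (points, filled where called; bar, class median; dashed line, median of all genes). The median of the 10 matrix genes lies at 1.97 and 2.18, and that of the other small leucine-rich proteoglycans at -0.87 and -0.23.

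Markers of some other cell types moved with the same groups. The 10 fibroblast and myofibroblast markers summed to 507 to 708 FPKM in 40-min IRI kidneys and 61.3 to 118 FPKM in controls on day 1, with 8 of 10 called higher, and to 224 to 751 FPKM in IRI kidneys and 82.5 to 90.8 FPKM in controls on day 3, with 9 of 10 higher. The 14 macrophage and monocyte markers summed to 98.6 to 363 FPKM in 40-min IRI kidneys and 38.6 to 69.8 FPKM in controls on day 1, with 11 of 14 higher, and to 194 to 368 FPKM in IRI kidneys and 30.8 to 52.0 FPKM in controls on day 3, with 12 of 14 higher. The IRI kidney of 40-min mouse 6 of day 1, the highest in Fn1, Dcn, Lum, Postn, Fbn1 and Sparc, had the highest macrophage sum of its group. Of the 6 adipose markers with values, 5 were higher on day 1 and 3 on day 3. Without Fabp4, which was left out after its high level in control kidneys was seen, they summed to 1.06 to 30.6 FPKM in 40-min IRI kidneys and 0 to 0.0887 FPKM in controls on day 1, and to 2.89 to 132 FPKM in IRI kidneys and 0 to 0.118 FPKM in controls on day 3. Mesothelial markers summed to 1.06 to 7.43 FPKM in 40-min IRI kidneys and 0.0271 to 0.961 FPKM in controls on day 1, with 1 of 3 higher, and 3 of 3 were higher on day 3. Platelet markers summed to 8.87 to 39.3 FPKM in 40-min IRI kidneys and 2.76 to 4.87 FPKM in controls on day 1, with 2 of 6 higher and 1 lower, and on day 3 1 of 6 was higher and 1 lower. Mostly Pf4 made up the high sums, at up to 37.9 FPKM, with Ppbp at most 3.28. The median log2 fold change of the platelet markers was 0.35 on day 1 and -0.12 on day 3. Of 8 endothelial markers 1 was higher on day 1 and 0 on day 3, and of 6 podocyte markers 0 were higher on either day and 1 was lower on day 3. Of 6 smooth muscle and mesangial markers 2 were higher on day 1, and 1 was higher and 1 lower on day 3. Of 4 urothelial markers 1 was higher on each day, and of 5 liver markers 2 were lower on day 1 and 3 on day 3. The part of these cell types in the levels of the 10 genes was not tested.

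Outside the 10 genes, the 2 genes whose log2 level followed each most closely over the 48 kidneys were named as a description, the 48 kidneys being shared by all pairs. Pearson's r was 0.986 for Fbn1 with Col5a1 and 0.974 with Col1a1, 0.981 for Sparc with Loxl2 and 0.975 with Col5a1, 0.980 for Tnc with Myh9 and 0.978 with Itgb1, and 0.956 for Thbs1 with Akap12 and 0.951 with Itga3. It was 0.938 for Postn with Adamts2 and 0.937 with Ptgfrn, 0.922 for Fn1 with Col1a2 and 0.921 with Col6a1, and 0.911 for Vcan with Tmsb10 and 0.905 with Triobp. It was lower for Dcn (0.850 with Cpxm1 and with Dkk3), Tnn (0.830 with Slc14a1 and 0.806 with Elfn1) and Lum (0.777 with Scn7a and 0.775 with Dkk3).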

How the data were processed

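Renal cortex RNA of both kidneys of 24 mice was sequenced by the authors after mRNA enrichment. Reads were checked with FastQC 0.11.7 and aligned to GRCm38 with HISAT2 2.1.0, and the authors deposited FPKM values per Ensembl transcript (33953 transcripts, each reaching 0.5 FPKM in at least 1 library), normalized by library size and length. A transcript under 0.5 FPKM in every control kidney was thus kept only through an IRI kidney. No counts were used, so depth was only estimated from the steps of low values. Of the transcripts, 33871 were found in GENCODE M21 and 82 were kept unassigned. FPKM were summed per gene symbol, and groups were taken from the sample labels.

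Each comparison was fitted with limma 3.58.1 (R 4.3.3, eBayes with trend) on log2(FPKM + 0.01) after genes averaging under 0.01 FPKM were dropped, using only the groups compared, with Benjamini-Hochberg adjustment over all genes. A fold change on this scale understates the change of low genes. A call between 2 groups needed a 2-fold difference besides an adjusted p under 0.05, and a difference of fold changes needed the adjusted p alone. Transcript shares and neighbouring groups were compared by two-sided exact permutation tests over the 924 splits of 6 against 6 kidneys. These tests did not pair the left and right kidney of a mouse. The main transcript of a gene, whose share was tested, was the one with the highest mean FPKM over all 48 kidneys. The fits were tested on simulated data. The 10 genes, the related classes, the marker lists and the tests were chosen with earlier results of these data known. Named genes were the 10, for each the 2 genes with the highest Pearson r over 48 kidneys among those with a group mean of at least 1 FPKM, and in each related class the called gene with the smallest adjusted p in the 40-min model on day 3.

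The labels mark the left and right kidney of a mouse by a shared mouse number. The mouse numbers given here are instead the replicate numbers within each group. The deviations of the 2 kidneys of a mouse from their group means correlated between -0.0488 and 0.108 across 12648 genes. Alternatives were pseudocounts of 0.1 and 1, no filter, a filter at a mean of 1 FPKM, no trend, equal medians, a replicate block and each replicate left out. Genes of the lists without a transcript in these tables were not analysed here.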

Additional observations from a re-analysis of the deposited data

Results flagged for a closer look

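A single kidney stood apart from the other 5 of its group in 6 of the 80 combinations of gene and group, by Dixon's test, which flags about 1 in 20 groups by chance. These were the 20-min control kidneys of day 1 of mouse 5 in Postn (0.0478 FPKM) and Fn1 (1.06 FPKM) and of mouse 3 in Tnn (0.314 FPKM), the 20-min IRI kidney of day 3 of mouse 6 in Lum (1.01 FPKM), and the 40-min control kidneys of day 3 of mouse 4 in Sparc (75.4 FPKM) and mouse 1 in Dcn (17.9 FPKM).

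The log2 fold change of IRI over control kidneys was larger in the 40-min than in the 20-min model, by limma's test of the difference itself, in 5 genes on day 1 and 9 on day 3. On day 1 the difference was 2.82 for Postn, 3.11 for Tnc, 1.41 for Sparc, 1.76 for Thbs1 and 1.96 for Fbn1. On day 3 it was 5.36 for Postn, 3.62 for Tnc, 2.96 for Fn1, 1.76 for Sparc, 1.04 for Thbs1, 3.88 for Vcan, 1.54 for Lum, 1.22 for Dcn and 2.82 for Fbn1. Between the days of the 40-min model it differed for Thbs1, by -0.80 (day 3 minus day 1).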

How the results depend on the processing

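Of the counts of called genes over all comparisons and alternatives, 119 stayed within 1.5 times of the reported count, and 494 values of single genes kept direction and call, while 7 lost a call, 7 gained one and 13 changed sign. For replicates left out, only the lowest and highest fold change of each gene and comparison entered this tally. Genes called in neither setting count among those that kept their call. Of the 7 lost, 5 were lost with a pseudocount of 1, where the fold change fell under 2: Tnn (-0.23) and Lum (0.57) in 40-min IRI against control on day 3, Vcan in 40-min against 20-min IRI on day 1 (0.81) and day 3 (0.88), and Lum in 40-min against 20-min IRI on day 3 (0.64). The others were Dcn in 40-min against 20-min IRI on day 3, with equal medians and with single kidneys left out. For 40-min IRI kidneys of day 3 against day 1, 2 genes were called with the filter at 1 FPKM and with equal medians, in place of 1. The difference of fold changes between the days of the 40-min model was called for 2 genes with a pseudocount of 1, in place of 1. Only 1 transcript share passed where a gene had to reach 2 FPKM in every kidney, in place of 6, with 8 tests in place of 18. Every Tnc, Fn1 and Fbn1 comparison held kidneys under 2 FPKM and was left out there, not tested again. Only Sparc and Dcn remained. With single replicates left out, the counts ranged from 0 to 3 for 20-min IRI against control on day 1, from 1 to 3 for 40-min IRI of day 3 against day 1, and from 0 to 3 for the day difference of the 40-min model.

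With the replicate block the difference between the models was called for 7 genes on day 1, in place of 5, and 8 on day 3, in place of 9, and no other count of the 10 genes changed. In comparisons between groups of different mice the block joined kidneys by replicate number alone, so the unchanged counts there say nothing about pairing.

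The sign of values that were not called turned in some settings, and the cause was not tested. With a pseudocount of 1 the Tnc value of the 20-min model on day 3 was 0.051. With single replicates left out, log2 fold changes of the 20-min model ranged on day 1 from -0.0069 to 0.54 for Lum and from -0.22 to 0.068 for Dcn. On day 3 they ranged from -0.30 to 0.62 for Postn, -0.72 to 0.26 for Tnc, -0.21 to 0.087 for Sparc, -0.089 to 0.78 for Vcan, -0.55 to 0.062 for Lum, -0.12 to 0.40 for Dcn and -0.30 to 0.091 for Fbn1. Between 40-min and 20-min IRI kidneys they ranged on day 1 from -0.15 to 0.67 for Lum and from -0.14 to 0.42 for Dcn, and on day 3 from -0.85 to 0.13 for Tnn. Depth limits Tnn most, since it rested on an estimated 1.01 to 3.53 fragments per 40-min IRI kidney of day 3. In a 40-min control kidney of day 1 Tnn reached an estimated 285 fragments, so this limit does not hold for every kidney. The transcript shares rest on the authors' assignment of shared fragments.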

Other observations

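Among the 10 genes, how far each kidney lay from its group mean was compared as a description over 24 left and 24 right kidneys, which share their libraries. Over the 36 pairs of genes without Tnn, the median Pearson r of these deviations was 0.58 in left kidneys (-0.145 to 0.955) and 0.328 in right kidneys (-0.247 to 0.817). Over the 9 pairs with Tnn it was 0.227 in left kidneys and 0.296 in right kidneys.

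Single kidneys of the mild model held matrix genes at levels near those of the severe one. The 20-min IRI kidney of mouse 3 on day 1 had 5.91 FPKM of Postn, 9.34 FPKM of Tnc and 1.60 FPKM of Vcan, with 84.6% of Tnc on Tnc-204 and 98.1% of Fbn1 on the transcript with the long first exon. The 20-min IRI kidney of mouse 4 on day 3 had 5.20 FPKM of Tnc with 69.5% on Tnc-204, but 0.561 FPKM of Postn and 0.107% of Fbn1 on that transcript.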
